A study of Mus musculus with 4 samples.

Results

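The mitochondrial fatty acid oxidation enzymes are encoded by nuclear genes, and 35 of them were examined here in mouse brown adipose tissue (BAT). They were chosen by function, with earlier results of these data known, and matched by gene symbol. The set holds acyl-CoA synthetases, carnitine transferases, the enzymes of the beta-oxidation cycle, electron transfer flavoproteins, mitochondrial thioesterases, enzymes of ketone metabolism and malonyl-CoA decarboxylase. Of these, 34 were among the 17259 genes listed for the series, and Acsl6, a synthetase known mainly from brain, was not listed. A test was run on 33. The muscle isoform gene Cpt1b was left out of it because its mean over the 4 libraries was below the minimum of 10. The samples came from BAT of wild-type mice. RNA of isolated mitochondria (BAT-Mito, 2 libraries) was compared with RNA labelled as total in the titles and as tissue without mitochondria in the treatment field (BAT-total, 2 libraries). If mitochondria were not removed from BAT-total, as the study's mention of total lysates allows, its values stand for the whole tissue. The sources used here gave no age or sex, no link between libraries of equal number, and no statement that replicates came from separate animals, so that p-values may measure only technical spread.

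Long-chain fatty acids are the main fuel of brown fat. They are joined to coenzyme A on the outer mitochondrial membrane and the endoplasmic reticulum, carried into the matrix as carnitine esters, and shortened in repeated rounds of dehydrogenation, hydration, a second dehydrogenation and thiolysis. Electrons from the first step reach the respiratory chain through the electron transfer flavoprotein (ETF) and its ubiquinone oxidoreductase. All of these proteins are made on cytosolic ribosomes, so their mRNAs in a mitochondrial preparation are RNAs of nuclear origin found there.

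The values were normalised counts, that is, gene counts that the authors had divided by a size factor for each library, and they summed to 218773335 and 171918657 in BAT-Mito and to 1590096 and 1905303 in BAT-total. Genes encoded in mitochondrial DNA took 95.3% and 95.5% of the normalised counts in BAT-Mito and 51.1% and 59.3% in BAT-total. Of the reads recovered in BAT-Mito, 49420 in replicate 1 and 58238 in replicate 2 fell on nuclear protein-coding genes, and 602 and 1812 of these on the fatty acid oxidation genes. One read was worth 8.32 units in BAT-Mito replicate 1 and 6.90 units in replicate 2, so low values there rested on few reads. The number of reads behind BAT-total values is unknown. BAT-Mito replicate 1 stood apart. Liver markers made up 3.76% of its nuclear protein-coding values, against 0.357% in BAT-Mito replicate 2, 0.0630% in BAT-total replicate 1 and 0.0253% in BAT-total replicate 2. Brown adipocyte markers made up 0.713% there and 1.94%, 2.13% and 1.94% in the other libraries in the same order. Skeletal muscle markers stood at 0.899% and 0.278% in BAT-Mito against 0.0540% and 0.119% in BAT-total, and the cardiac myosin gene Myh6 at 183 and 531 normalised counts against 2 and 0. Of the other 6 heart markers, 4 were not listed, and Myl4 (0 and 14 against 2 and 2) and Ryr2 (33 and 7 against 7 and 11) were low in every library. In bulk RNA, fewer cells of a type and less RNA per cell cannot be told apart. The part of these transcripts in the results below was not tested. Counts without BAT-Mito replicate 1 are given beside the main counts for the members, but not for the other gene lists.

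Brown fat expressed the pathway at high levels. Per kilobase of the longest principal transcript, the median member stood at percentile 97.5 among 12955 nuclear protein-coding genes in BAT-total, and 26 of the 34 listed members were in the top 10% and 22 in the top 5%. On this scale of mean normalised count per kilobase, the mitochondrial 3-ketoacyl-CoA thiolase gene Acaa2 (939, rank 19) and the long-chain acyl-CoA dehydrogenase gene Acadl (932, rank 20) led. They were followed by the medium-chain dehydrogenase gene Acadm (729), the very long-chain dehydrogenase gene Acadvl (658), the trifunctional protein gene Hadhb (629), the synthetase gene Acsl1 (613), the other trifunctional protein gene Hadha (509), the ETF subunit gene Etfa (449) and the hydroxyacyl-CoA dehydrogenase gene Hadh (439). Neighbours in this order often overlapped between the 2 libraries, and the first and the second differed by less than the spread of either. Both isoform genes of carnitine palmitoyltransferase 1, the regulated entry step, stood at the bottom: Cpt1b at 4.66 per kilobase (percentile 45.4) and Cpt1a at 4.63 (percentile 45.2). For Cpt1b, 81.4% of its exon bases in the GENCODE M21 annotation lie in exons of Gm44502 on the same strand, and reads that touched several genes were left out of the counting. If the annotation used for counting held Gm44502, reads from those bases were not credited to Cpt1b. Etfb, the other ETF subunit gene, shares 58.3% of its exon bases with Gm45233 and Mir7051 in the same way, and its level of 95.2 per kilobase has the same limit.

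The BAT-total libraries were close to each other. Their values were within 1.5-fold of each other for 30 of the 34 members, and this was so for 2 of 34 members in BAT-Mito, Acsl1 and Oxct1. BAT-total replicate 1 was above replicate 2 in 29 of 33 tested members, against 52.0% of all tested genes, with a median ratio of 1.22.

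**Figure D1:**
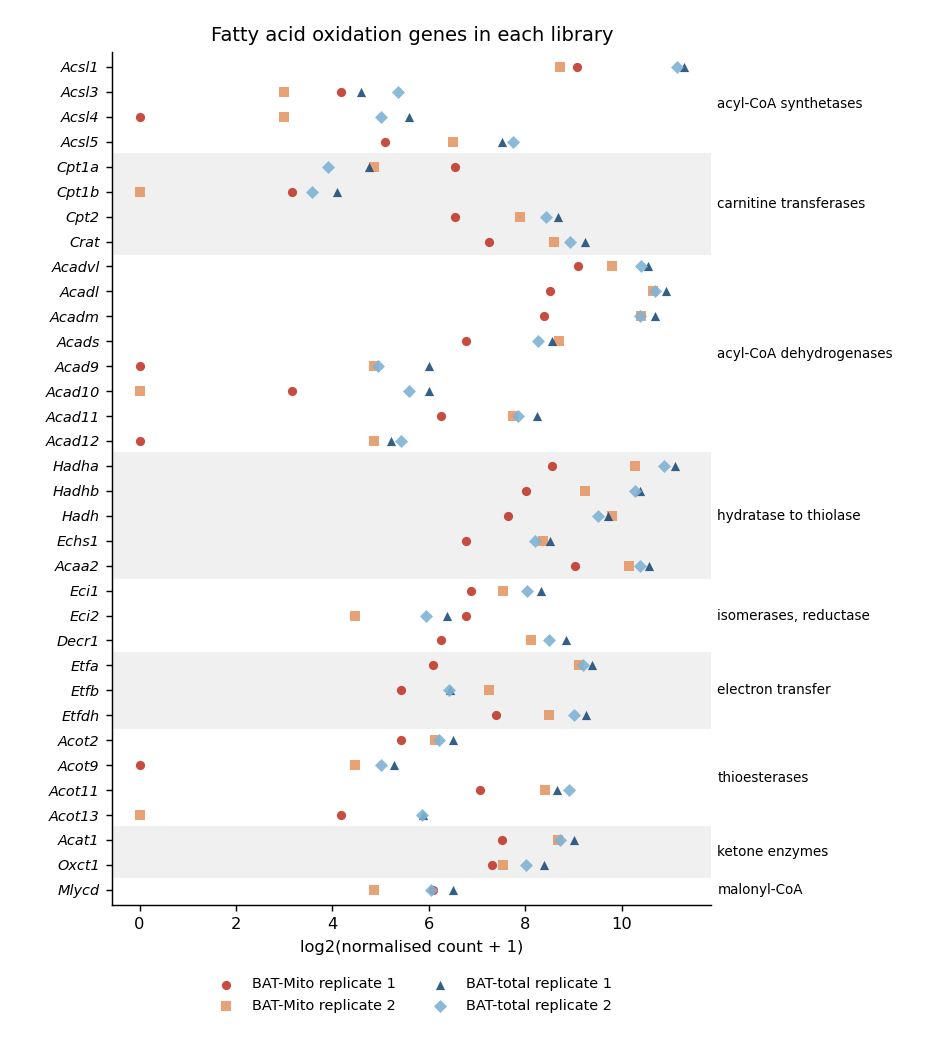
Each row is 1 listed gene and each point its log2(normalised count + 1) in 1 library, with the genes ordered by role in the pathway; no error bars are drawn because every library is shown. The 2 BAT-total points of a gene lie close together, while BAT-Mito replicate 2 lies above BAT-Mito replicate 1 in 26 of the 34 genes.

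No member passed the test between BAT-Mito and BAT-total. The comparison used limma on log2(normalised count + 1) over 8215 genes, with an adjusted p under 0.05 as the threshold. Among all tested genes, 0.803% were called higher in BAT-Mito and 4.41% lower, and among the 33 members 0 were called in either direction. Adjusted p-values of the members ran from 0.138 for Acsl1 to 0.948 for Etfb. At an unadjusted p under 0.05, 0 members were higher (3.20% of all tested genes) and 3 were lower (14.9% of all tested genes), namely Acsl1, Acsl4 and Acad10. The tools edgeR and DESeq2, run on the recovered reads of BAT-Mito and the BAT-total values taken as reads, also called 0 members, where they called 3.06% and 3.58% of genes higher and 0.596% and 0.254% lower. Without BAT-Mito replicate 1, limma called 1 member higher and 4 lower, as described with the contrast between the mitochondrial libraries below.

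Most members had lower values in BAT-Mito, as most nuclear genes had. The fitted log2 fold change was below 0 in 32 of 33 members and in 6667 of 8215 tested genes, with a median of -1.16 for the members and -1.23 for all tested genes. The counts depended on the tool, with 27 of 33 members and 57.7% of tested genes below 0 in edgeR and 24 of 33 and 53.3% in DESeq2. Without BAT-Mito replicate 1 the fold change was below 0 in 28 of 33 members and in 72.7% of tested genes. Under other scalings or tools the sign turned for Eci2, Etfb and Acot2, and in some of them also for Acads, Hadh, Echs1, Acat1 and Mlycd. Both BAT-Mito values lay below both BAT-total values in 25 of 33 members (75.8%), against 52.1% of all tested genes. The value of BAT-Mito replicate 2 alone lay below both in 27 of 33 members, against 67.9% of all tested genes. Among the 597 genes with a BAT-total mean of at least 200, 71.9% had both values below, against 16 of the 20 members at that level. Both BAT-Mito values lay above both BAT-total values in 1 member, Cpt1a, against 8.59% of all tested genes. The size of the shift between groups depended on the scaling. Its median over all tested genes was -0.66 with TMM factors, -0.51 with median ratios over nuclear protein-coding genes and -0.10 in DESeq2, and that of the members -0.55, -0.39 and -0.29. The members' median was therefore above that of all genes under the first pair of scalings and below it in DESeq2. It was also below with a pseudocount of 10 (-1.13 against -0.73 for all tested genes) and with a mean of at least 50 (-1.05 against -0.96).

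**Figure D2:**
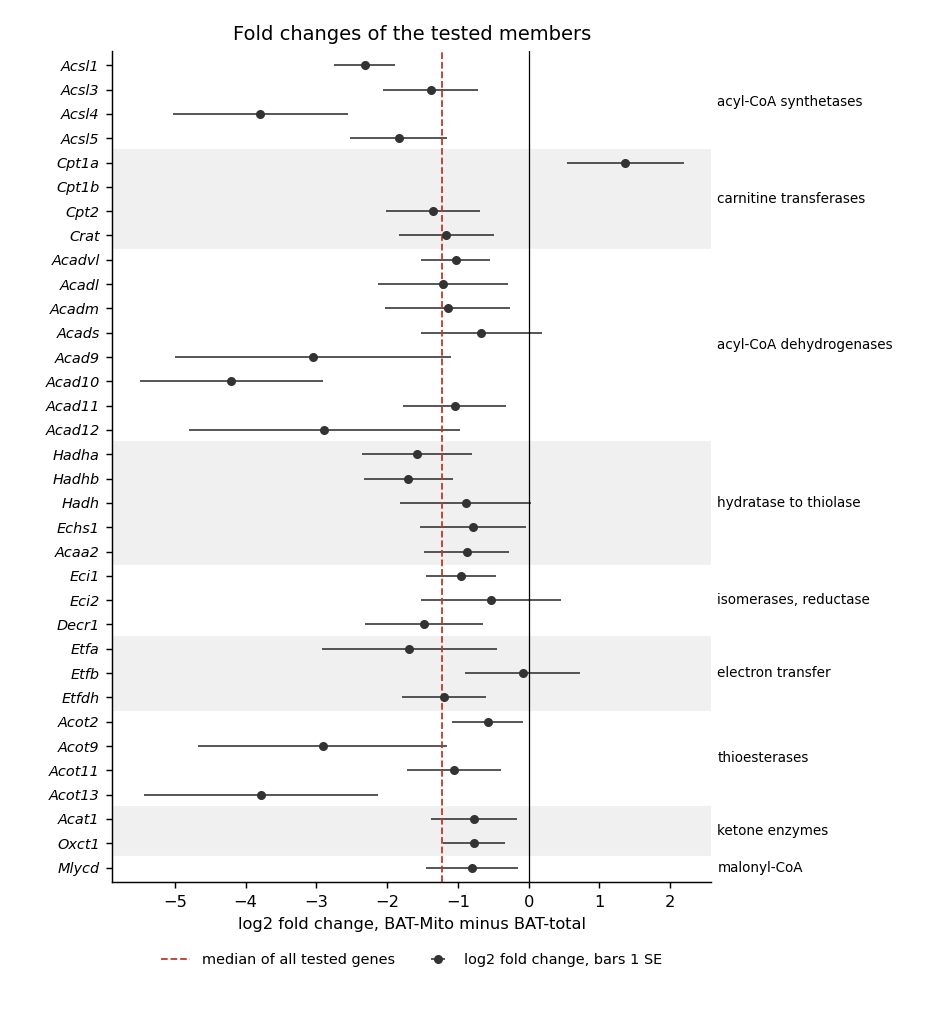
Points give the limma log2 fold change of BAT-Mito against BAT-total for the 33 tested genes, with bars of 1 standard error; the solid line marks no difference and the dashed line the median of all tested genes, -1.23. Acsl1 combines a low value of -2.32 with a short bar, Cpt1a at 1.37 is the only point to the right of 0 at this scaling (Eci2, Etfb and Acot2 joined it at others, and Acads with median ratios), and the widest bars belong to genes with 0 reads in 1 BAT-Mito library.

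For the members, the median difference between the 2 BAT-Mito libraries was larger in size than that between the groups (-1.16). Over all tested genes it was smaller than that between the groups (-1.23). BAT-Mito replicate 2 was above BAT-Mito replicate 1 in 26 of 33 tested members (78.8%), against 47.4% of all tested genes. Among genes with a BAT-total mean of at least 200 this was so for 19 of 20 members, against 62.0% of 597 genes. The median log2 difference between the libraries, replicate 2 minus replicate 1, was 1.34 over the members and 0.00 over all tested genes, and 1.35 against 0.44 among genes of at least 200. Set against the BAT-total mean, the members' median was -1.80 in BAT-Mito replicate 1 (all tested genes -1.05) and -0.62 in replicate 2 (all tested genes -0.92). Replicate 1 lay below both BAT-total values in 30 of 33 members (70.3% of all tested genes). The calls depended on which BAT-Mito library was kept. Without replicate 1, 1 member was called higher (Etfb, background 5.68%) and 4 lower (Acsl1, Hadhb, Acad10 and Acot13, background 41.1%). Without replicate 2, 0 were called higher (background 7.57%) and 27 lower (background 47.0%). In these fits the lone BAT-Mito library is assumed to vary as the close BAT-total pair did.

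As a share of nuclear protein-coding values, which needs no scaling between libraries, the members made up 1.22% in BAT-Mito replicate 1 (602 of 49420 reads, 95% Wilson interval 1.13% to 1.32%) and 3.10% in replicate 2 (1812 of 58238 reads, 2.97% to 3.26%). The BAT-total libraries stood at 3.07% and 2.70%. With this denominator BAT-Mito replicate 1 was the low library, and replicate 2 was at the level of BAT-total. The group means were 2.16% ± 1.33 (SD, n = 2) and 2.88% ± 0.257 (SD, n = 2), with p = 1.00 in an exact two-sided permutation test, which cannot go below 0.333 with 2 against 2. Of all nuclear values, non-coding genes included, the members made up 0.0482% and 0.160% in BAT-Mito against 2.54% and 2.21% in BAT-total (exact permutation p = 0.333, the smallest possible). This denominator held 1248673 and 1129316 reads in BAT-Mito, of which 49420 and 58238 fell on protein-coding genes. Most of it was thus not protein-coding there, and the far lower share does not measure the members alone. The Wilson intervals cover counting error only.

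**Figure D3:**
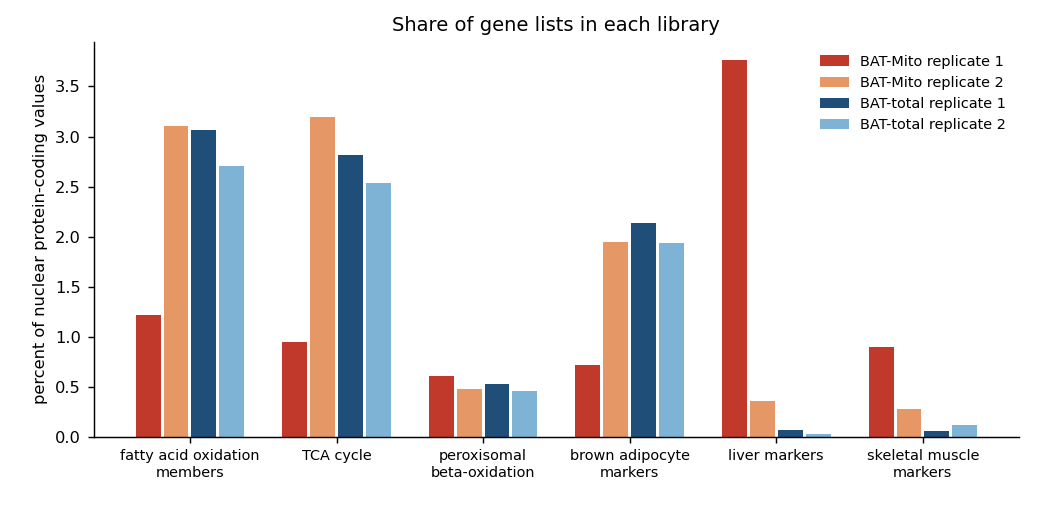
Bars start at 0 and give the share of each gene list in the nuclear protein-coding values of each library, in percent, with 1 bar per library and no error bars. The fatty acid oxidation genes, the TCA cycle and the brown adipocyte markers share a low bar in BAT-Mito replicate 1 (1.22%, 0.945% and 0.713%), where the liver markers reach 3.76%.

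Acyl-CoA synthetases, which activate fatty acids, had lower values in both BAT-Mito libraries than in both BAT-total libraries in all 4 listed members (52.1% of all tested genes), with a median log2 fold change of -2.08 against -1.23 for all tested genes. Acsl1 (chr8:46471037-46536051, plus strand, GRCm38) encodes the main long-chain synthetase of fat, and its normalised counts were 541 and 421 in BAT-Mito and 2510 and 2264 in BAT-total. The BAT-Mito values were 22.7% and 17.6% of the BAT-total mean, they rested on 65 and 61 reads, and the 2 groups were far apart. Its log2 fold change was -2.32 (SE 0.43, limma adjusted p = 0.138), which is 1.09 below the median of all tested genes. It was the member called most often when the processing was changed. With a trend in the prior variance it had a limma adjusted p of 0.0336 (background 5.50% lower), and with all listed genes in the fit one of 0.0215 (background 20.8% lower). The log2 fold change of Acsl1 was -2.50 without BAT-Mito replicate 1 and -2.14 without BAT-Mito replicate 2. Its limma adjusted p rose to 0.422 with a replicate block, and to 0.844 and 0.840 without BAT-total replicate 1 and replicate 2. Among the members' own values, Acsl1 took 10.8% in BAT-Mito replicate 1 and 3.37% in replicate 2, against 12.7% and 13.2% in BAT-total (exact permutation p = 0.333, the smallest possible).

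The other synthetases were less abundant. Acsl5, a synthetase of the outer membrane and endoplasmic reticulum, had 33 and 90 normalised counts in BAT-Mito against 182 and 215 in BAT-total (log2 fold change -1.84, SE 0.69). Acsl4, which prefers arachidonate, had 0 and 7 in BAT-Mito against 47 and 31, that is, 1 read over both mitochondrial libraries. Its pooled reads gave 0.0967 of the BAT-total mean (95% exact Poisson interval 0.00245 to 0.539). This interval and those of the same kind for other members cover the counting error of BAT-Mito reads only, and hold at the deposited scaling. Acsl3, a synthetase linked to lipid droplets, had 17 and 7 against 23 and 40, from 3 reads, with a ratio of 0.359 (0.0741 to 1.05) that reaches equality. Acsl1 thus carried most of the synthetase signal in every library.

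Among the carnitine transferases, which pass acyl groups between coenzyme A and carnitine, 0 of 3 tested genes were called (all tested genes 0.803% higher and 4.41% lower). Cpt1a, the liver isoform of carnitine palmitoyltransferase 1, had 92 and 28 normalised counts in BAT-Mito against 26 and 14 in BAT-total. Its BAT-Mito values were 460% and 140% of the BAT-total mean, the lower of them just above the higher BAT-total value. The counts rested on 11 and 4 reads, and the log2 fold change of 1.37 (SE 0.83) had a limma adjusted p of 0.403. The high value was in BAT-Mito replicate 1, the library in which the 12 liver markers summed to 15462 normalised counts, against 1436 in replicate 2 and 406 and 160 in BAT-total. Cpt1b had 8 and 0 in BAT-Mito and 16 and 11 in BAT-total, all at or below what 3 reads are worth in BAT-Mito, and no fold is given. Cpt2, which returns the acyl group to coenzyme A inside mitochondria, had 92 and 235 against 410 and 346 (log2 fold change -1.35, SE 0.66, limma adjusted p = 0.343). Crat, which moves acetyl groups, had 150 and 386 against 601 and 487 (log2 fold change -1.16, SE 0.67). For both, replicate 1 stood at 24.3% and 27.6% of the BAT-total mean and replicate 2 closer to it, at 62.2% and 71.0%.

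The first oxidation step is run by chain-length specific dehydrogenases. Acadvl, for very long chains, had 549 and 883 normalised counts in BAT-Mito against 1501 and 1352 in BAT-total (log2 fold change -1.03, SE 0.49). Both mitochondrial values were below the other pair. Of its exon bases, 42.9% lie in exons of Dvl2 on the opposite strand, and Dvl2 itself had at most 35 normalised counts in any library. Acadl, for long chains, had 366 and 1615 against 1929 and 1641 (log2 fold change -1.21, SE 0.92). Acadm, for medium chains, had 333 and 1346 against 1660 and 1324 (log2 fold change -1.15, SE 0.88). Acads, for short chains, had 108 and 414 against 374 and 305 (log2 fold change -0.67, SE 0.85). The latter 3 genes showed one pattern: BAT-Mito replicate 2 was within or next to the BAT-total pair, at 90.5%, 90.2% and 122% of its mean, and replicate 1 was far below, at 20.5%, 22.3% and 31.8%. The ratio of Acadm to Acadl hardly changed, at 0.910 and 0.833 in BAT-Mito and 0.861 and 0.807 in BAT-total.

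The remaining dehydrogenase family members had lower counts. Acad11 had 75 and 214 normalised counts in BAT-Mito against 304 and 228 in BAT-total (log2 fold change -1.05, SE 0.72). Acad9, which also serves the assembly of respiratory complex I, had 0 and 28 against 63 and 30, and Acad12 had 0 and 28 against 36 and 42. Each of the pair was seen with 4 reads in replicate 2 and none in replicate 1, so no fold is read from them. Acad10 had 8 and 0 against 63 and 47, a single read, with a pooled ratio of 0.0686 (95% exact Poisson interval 0.00174 to 0.382). Acad10 and Acad12 lie next to each other on chromosome 5, and 43.6% and 46.4% of a transcript of each matched the other at 95% identity or more over at least 75 bases, so reads could be lost from both where counting drops reads with several positions.

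Hydration, the second dehydrogenation and thiolysis of long chains are carried out by the trifunctional protein, whose subunits are encoded by Hadha and Hadhb. The genes lie head to head on chromosome 5, Hadha at chr5:30118304-30155162 on the minus strand and Hadhb at chr5:30155248-30184593 on the plus strand (GRCm38). The 85 bases between their annotated ends, chr5:30155163-30155247, are printed because they are all that separates the 2 genes in GENCODE, with the plus strand shown and CpG dinucleotides in capitals (RefSeq promoter table, GRCm38.p6). RefSeq places the start of Hadha further inside the gene.
Hadha-Hadhb: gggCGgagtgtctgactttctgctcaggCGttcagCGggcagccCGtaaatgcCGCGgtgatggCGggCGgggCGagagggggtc
It holds 9 CpG and is 69.4% G or C. The RefSeq promoter window of Hadhb, which is 300 bases long and contains it, is 60.7% G or C, and the median of 32851 such windows was 52.7%. The letters AGGTCA, read on both strands, do not occur in it. They are the core that nuclear receptors such as the PPAR and ERR families bind. In the windows from 250 bases before to 50 after each gene start they occurred in 5 of 28 members with a window (17.9%), Acadm, Acadvl, Acsl6, Cpt1a and Echs1, and in 18.1% of all genes with a window. The longer TCAAGGTCA occurred in 1 member, Acsl6 (0.466% of all genes), and a pair of AGGTCA copies in the same direction with 1 base between them in 0 (0.0481% of all genes). Each of the longer motifs contains the short one.

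Hadha had 374 and 1242 normalised counts in BAT-Mito against 2198 and 1891 in BAT-total (log2 fold change -1.58, SE 0.78, limma adjusted p = 0.346). Hadhb had 258 and 607 against 1331 and 1246 (log2 fold change -1.70, SE 0.62, limma adjusted p = 0.291). In both genes the BAT-Mito values lay below the BAT-total values, and replicate 2 was the higher. The ratio of Hadha to Hadhb was 1.45 and 2.05 in BAT-Mito and 1.65 and 1.52 in BAT-total, so the groups overlapped (exact permutation p = 1.00). Hadh, the dehydrogenase for shorter chains, had 200 and 890 normalised counts in BAT-Mito against 844 and 727 in BAT-total (log2 fold change -0.89, SE 0.92). Echs1, the short-chain enoyl-CoA hydratase, had 108 and 331 against 362 and 294 (log2 fold change -0.78, SE 0.75). In Hadh the replicate 2 value exceeded both BAT-total values and in Echs1 it lay between them, at 113% and 101% of their mean. Acaa2, the thiolase of the matrix for shorter chains, had 524 and 1139 against 1522 and 1326 (log2 fold change -0.88, SE 0.60). Its ratio to Hadhb was 2.03 and 1.88 in BAT-Mito and 1.14 and 1.06 in BAT-total, without overlap, and the exact permutation p of 0.333 is the smallest that 2 against 2 allows. This ratio was computed within each library and was similar in both BAT-Mito libraries. Of 5 ratios between members that were compared in this way, 2 did not overlap between the groups, and none passed (smallest Benjamini-Hochberg adjusted p = 0.833, exact permutation test).

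**Figure D4:**
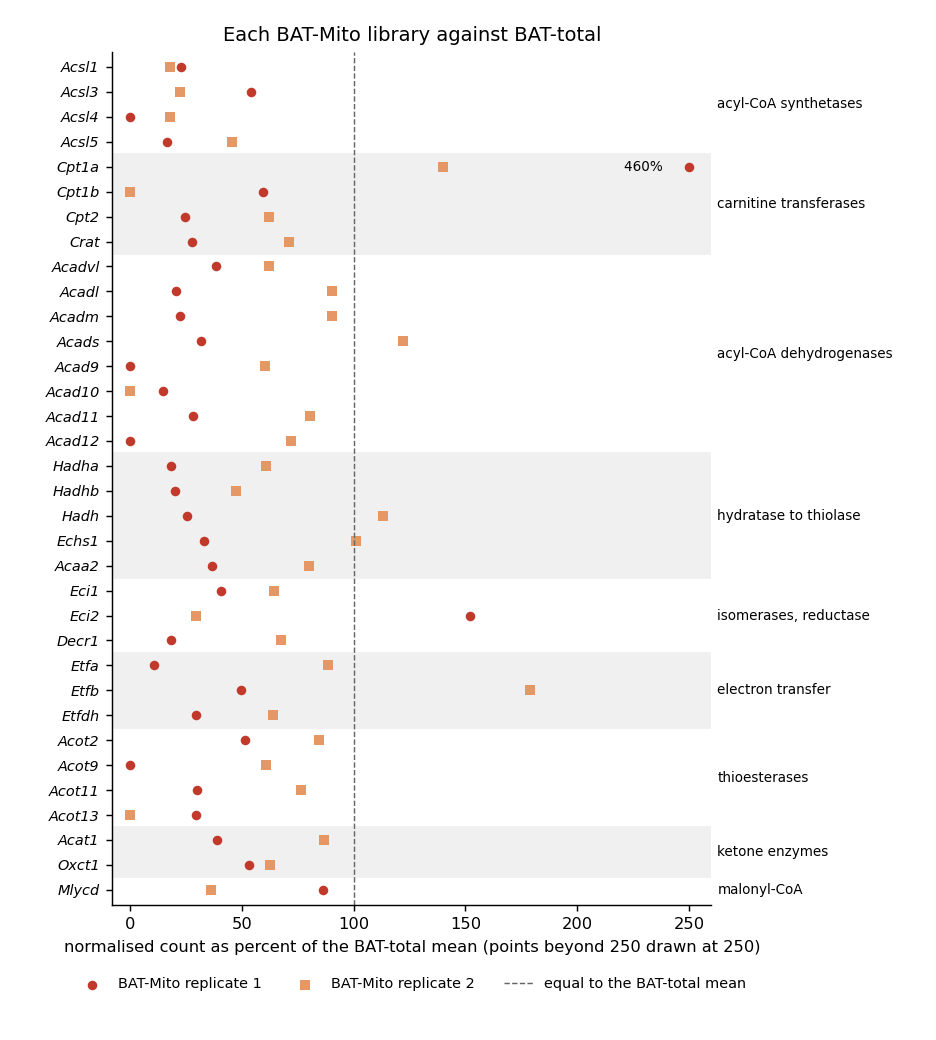
Each row is 1 listed gene, and the points give the normalised count of each BAT-Mito library as a percent of the BAT-total mean, with a dashed line at 100 and no error bars; the value of 460% for Cpt1a is drawn at the edge. Acsl1 has both points near 20%, while most dehydrogenases and enzymes from hydratase to thiolase have replicate 1 near 20% to 40% and replicate 2 between 47% and 122%.

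The auxiliary enzymes let unsaturated fatty acids enter the cycle. Eci1, an enoyl-CoA isomerase, had 117 and 186 normalised counts in BAT-Mito against 318 and 261 in BAT-total (log2 fold change -0.96, SE 0.49). Decr1, the dienoyl-CoA reductase, had 75 and 276 against 460 and 357 (log2 fold change -1.49, SE 0.84). These resembled the core enzymes. Eci2, an isomerase found in both mitochondria and peroxisomes, had 108 and 21 against 82 and 60 (log2 fold change -0.54, SE 0.99), so that replicate 1 was at 152% of the BAT-total mean and replicate 2, with 3 reads, at 29.6%. It was 5.14-fold higher in replicate 1 than in replicate 2, the reverse of most members. For Eci2, 38.1% of a transcript matched other genes, Gm15287 and Gm15280 among them, at 95% identity or more.

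The electron transfer genes held the widest gap between the mitochondrial libraries among members with reads in both. Etfa had 67 and 552 normalised counts in BAT-Mito, an 8.24-fold difference from 8 and 80 reads, against 667 and 583 in BAT-total (log2 fold change -1.69, SE 1.23). Replicate 2 was close to BAT-total, at 88.3%, and replicate 1 stood at 10.7%. Etfb had 42 and 152 against 86 and 84 (log2 fold change -0.08, SE 0.81), with BAT-total between the mitochondrial values. Replicate 2 was at 179% of BAT-total, the highest share in that library. The ratio of Etfa to Etfb was 1.60 and 3.63 in BAT-Mito and 7.76 and 6.94 in BAT-total (exact permutation p = 0.333), with the exon overlap of Etfb noted above. Etfdh, the oxidoreductase that passes the electrons on to ubiquinone, had 166 and 359 against 610 and 515 (log2 fold change -1.20, SE 0.60), below BAT-total in both.

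Thioesterases release free fatty acids from coenzyme A. Acot11, known as brown fat inducible thioesterase, had 133 and 338 normalised counts in BAT-Mito against 404 and 481 in BAT-total (log2 fold change -1.05, SE 0.66). Acot2, of the mitochondrial matrix, had 42 and 69 against 90 and 73 (log2 fold change -0.58, SE 0.50), and 58.0% of its transcript matched Acot1 at 95% identity or more. Both of these were lower in both BAT-Mito libraries. Acot9 had 0 and 21 against 38 and 31, with a pooled ratio of 0.328 (95% exact Poisson interval 0.0677 to 0.959), and 84.9% of a transcript matched Acot10 or Gm49685. Acot13 had 17 and 0 against 58 and 57, with a ratio of 0.131 (0.0159 to 0.474). These last values rested on 3 and 2 reads.

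The ketone enzymes were less uneven between the mitochondrial libraries in the case of Oxct1, which activates acetoacetate for use as fuel. It had 158 and 186 normalised counts in BAT-Mito against 335 and 259 in BAT-total (log2 fold change -0.78, SE 0.44), or 53.2% and 62.6% of the BAT-total mean. Acat1, the acetoacetyl-CoA thiolase, had 183 and 407 against 518 and 421 (log2 fold change -0.77, SE 0.61), with replicate 2 just below the lower BAT-total value. Mlycd removes malonyl-CoA, the inhibitor of carnitine palmitoyltransferase 1. It had 67 and 28 against 90 and 65 (log2 fold change -0.80, SE 0.65), with replicate 1 within the BAT-total range.

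In all, 8 of the 34 listed members were higher in BAT-Mito replicate 1 than in replicate 2, namely Acsl1, Acsl3, Cpt1a, Cpt1b, Acad10, Eci2, Acot13 and Mlycd. For Acsl3, Cpt1b, Acad10 and Acot13 this rested on 3 reads or fewer in all. Cpt1a and Eci2 exceeded both BAT-total values in replicate 1, and their share among the members was 1.84% and 2.16% there, against 0.224% and 0.168% in replicate 2. In BAT-total, Cpt1a took 0.132% and 0.0818% of the members' values and Eci2 0.415% and 0.351%. The liver markers given above were highest in the same library, and their part in these values was not tested.

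Other genes of fatty acid metabolism were read from lists drawn up by function, with earlier results of these data known. Of 17 tested peroxisomal beta-oxidation genes, 0 were called (all tested genes 0.803% higher and 4.41% lower), 12 had a fold change below 0 in limma (81.2% of all tested genes), and the median log2 fold change was -0.83. In DESeq2 the share of all tested genes below 0 was 53.3%, and no count of this list is given for that tool. The lowest and the highest of the list were the acyl-CoA transporter Abcd2, with 0 and 14 normalised counts in BAT-Mito against 113 and 90 in BAT-total, and the carnitine octanoyltransferase Crot, with 125 and 97 against 41 and 42. The peroxisomal list made up 0.612% and 0.481% of nuclear protein-coding values in BAT-Mito and 0.524% and 0.455% in BAT-total, and here replicate 1 was not the low library. Whether this differs from the mitochondrial enzymes was not tested.

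Genes that supply fatty acids had 0 of 16 called (4.41% of all tested genes lower), 16 of 16 below 0 in limma (81.2% of all tested genes) and a median log2 fold change of -1.70 against -1.23 for all tested genes. The scavenger receptor Cd36, which takes up fatty acids, had 441 and 442 normalised counts in BAT-Mito against 1677 and 1614 in BAT-total. In this list the capillary protein Gpihbp1, which holds lipoprotein lipase, was lowest (8 and 0 against 126 and 115), and the fatty acid binding protein Fabp5 had the fold change nearest 0 (42 and 28 against 55 and 54). The carnitine and malonyl-CoA partners had 0 of 5 called, against the same shares of all tested genes, and a median of -1.24. Slc25a20, the carnitine-acylcarnitine carrier that connects the palmitoyltransferases, had 117 and 124 against 302 and 270 (log2 fold change -1.24, limma adjusted p = 0.274). Acacb, the acetyl-CoA carboxylase whose malonyl-CoA acts on carnitine palmitoyltransferase 1, had 208 and 304 against 2006 and 1566 (log2 fold change -2.81, limma adjusted p = 0.111) and was the lowest of its list. Aldh9a1, an enzyme of carnitine synthesis, was the highest, at 33 and 90 against 94 and 81. Of the 10 regulators, 1 passed the test: Esrra, the estrogen-related receptor alpha of oxidative metabolism, had 0 reads in both BAT-Mito libraries against 107 and 79 normalised counts in BAT-total (limma adjusted p = 0.0249), where 4.41% of all tested genes were called lower. With a replicate block, or without either BAT-total library, 0 genes were called and this call was lost. The Esrra call also rested on values of 0 in both BAT-Mito libraries, for which the fold change depends on the pseudocount. Genes called lower fell from 362 to 1 with a pseudocount of 10, and whether Esrra stayed called there is not reported here. The highest of the regulators, the liver nuclear receptor Hnf4a, had 83 and 0 against 3 and 0.

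The TCA cycle genes, which take up the acetyl-CoA made by beta-oxidation, had 0 of 17 called (all tested genes 0.803% higher and 4.41% lower) and a median log2 fold change of -1.21, with 16 of 17 higher in BAT-Mito replicate 2 than in replicate 1, against 47.4% of all tested genes and 62.0% of those with a BAT-total mean of at least 200. Their share of nuclear protein-coding values was 0.945% and 3.20% in BAT-Mito and 2.81% and 2.53% in BAT-total. The highest of them by fold change was Suclg2, with 100 and 28 normalised counts in BAT-Mito against 76 and 84 in BAT-total. Among 6 cytosolic reference genes 0 were called, the median was -0.94, and 5 of 6 were higher in replicate 2, against the same 47.4% and 62.0%. Their lowest and highest members were Hprt (0 and 41 against 25 and 32) and Eef1a1 (707 and 1070 against 1068 and 1002). The thermogenic gene Ucp1, the defining marker of brown adipocytes, had 1290 and 3554 normalised counts in BAT-Mito against 4819 and 4185 in BAT-total, with the low value in BAT-Mito replicate 1.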

How the data were processed

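Mapping was not done here. The authors trimmed single-end reads with Trimmomatic 0.39, aligned them to the mouse genome (mm10) with STAR 2.7.10a, counted them with featureCounts 2.0.2 without reads of several genes or positions, and normalised with DESeq2 1.30.1 (versions from the submitters' processing notes; the study's methods name others for STAR, featureCounts and DESeq2). Whether counting used strand is not given in the sources used here. The study adjusted fragmentation time for mitochondrial RNA, and treated isolated heart mitochondria with digitonin and RNase A. Whether this was also done for BAT is not given. The deposited table holds 1 column of signal per library, gene counts divided by size factors and rounded by the authors. 0 columns lacked a sample. In BAT-Mito 100% of values up to 1000 were whole multiples of 1 read, within 0.1 read. In BAT-total reads were not recovered.

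Genes with a mean of at least 10 were compared as log2(value + 1) with limma 3.58.1 in R 4.3.3, with Benjamini-Hochberg adjustment over all 8215. On this scale fold changes of low genes depend on the pseudocount, and a 0 in a BAT-Mito library can give a strongly negative one. For Acsl4 the log2 fold change was -4.32 with a pseudocount of 0.5, -3.79 with 1 and -1.89 with 10. Recovered reads, with BAT-total values taken as reads, entered edgeR 4.0.16 (quasi-likelihood) and DESeq2 1.42.0. The floor was 3 reads, worth 25.0 and 20.7 units in BAT-Mito. Near copies were sought with BLAST 2.17.0. Coordinates of 17099 of 17259 genes matched GENCODE M21 on GRCm38. The scripts were tested on simulated data. Some genes that the naming rule covers are not reported here. The members, the gene lists, the markers, and the rule that names all members, each list's lowest and highest tested gene by fold change and partners of members, were chosen with earlier results of these data known, and the rest by their values. Alternatives covered pseudocount, filter, scaling, prior trend, replicate block, tool and leaving out libraries.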

Additional observations from a re-analysis of the deposited data

How the results depend on the processing

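Across the alternatives the count of members called lower was 0 except for 1, Acsl1, with all genes in the fit and 1 with a prior trend, and without single libraries it ranged from 0 to 27 (higher, 0 to 1). Genes called lower numbered 1 with a pseudocount of 10, 3587 with all genes (143 higher) and 11 with a mean of at least 50. On reads, edgeR called 251 higher and 49 lower and DESeq2 254 and 18. Without single libraries the counts ranged from 0 to 622 higher and 0 to 3864 lower. DESeq2 moved the members' median to -0.29. The cause was not tested. The share difference of -0.72 percentage points was -2.27 over all nuclear genes, ranged from -1.67 to 0.221 without single libraries, and was 0.221 without BAT-Mito replicate 1. Signs turned with TMM for Eci2 (0.063), Etfb (0.52) and Acot2 (0.023). With median ratios they turned for Acads (0.098), Eci2 (0.22), Etfb (0.68) and Acot2 (0.18), and with nuclear protein-coding CPM for Eci2 (0.098), Etfb (0.56) and Acot2 (0.060). In edgeR they turned for Acads (0.19), Hadh (0.024), Eci2 (0.38), Etfb (0.79) and Acot2 (0.042). In DESeq2 they turned for Acads (0.30), Hadh (0.14), Echs1 (0.11), Eci2 (0.61), Etfb (0.88), Acot2 (0.16), Acat1 (0.027) and Mlycd (0.00051). Without single libraries the ranges were -1.64 to 0.29 for Acads, -1.96 to 0.18 for Hadh, -1.59 to 0.021 for Echs1, -1.0 to 0.83 for Etfb and -1.69 to 0.62 for Eci2.

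With a replicate block, 0 genes were called higher and 0 lower. Equal numbers are not said to mark a pair, and over genes the correlation of deviations between same-numbered libraries was 0.112, with 2 libraries a group. The genes with a BAT-total mean of at least 200, and the merged exon lengths that gave a median percentile of 97.7, were chosen after seeing the data. With 6 members at 3 reads or fewer in BAT-Mito, depth limits what can be said of them.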

Other observations

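Members and partners differed in how close the 2 BAT-Mito libraries were. Acsl1 (541 and 421 normalised counts) and Oxct1 (158 and 186) differed by less than 1.5-fold, as did the uptake receptor gene Cd36 (441 and 442) and the carrier gene Slc25a20 (117 and 124), while Etfa (67 and 552), Hadh (200 and 890) and Acadl (366 and 1615) differed more. These genes were chosen after their values were seen, and the difference between them was not tested. Macrophage markers made up 0.0730% and 0.0683% of nuclear protein-coding values in BAT-Mito against 0.0129% and 0.0123% in BAT-total, endothelial markers 0.0265% and 0.00174% against 0.149% and 0.158%, 3 listed heart markers, most of it Myh6 in BAT-Mito, 0.0525% and 0.137% against 0.00171% and 0.00205%, and blood cell markers 0.0608% and 0.158% against 0.0459% and 0.0986%. The endothelial list had 6 of 6 genes lower in both BAT-Mito libraries (52.1% of all tested genes) and 1 gene called lower (4.41% of all tested genes), and the other lists of this group had 0 called.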
